A study of Drosophila melanogaster with 6 samples.

Results

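The genes for the proteins of the cytosolic ribosome, with their paralogues, were examined in Drosophila melanogaster embryos of a pair of lines engineered at shaggy (sgg), the fly glycogen synthase kinase 3. Members were all genes of the authors' deposited comparison table whose symbol begins with RpL or RpS followed by a digit or P. This gave 87 of 10526 genes, 51 of the large subunit and 36 of the small subunit. Both lines were homozygous and carried CRISPR-Cas9 changes at sgg, an N-terminal DsRed tag and an internal StrepII-Flag-StrepII tag. The control line (sgg[isoD-DS-SFS]) had no other change at sgg. The mutant line (sgg[isoD-CI-DS-SFS]) also carried mutations at 2 consensus caspase recognition sites. Each line is 1 stock, so a difference due to the caspase sites and any other difference between the stocks cannot be told apart. RNA came from 3 independent collections of whole embryos per line, aged 10 to 15 hours.

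A eukaryotic ribosome holds a single copy of nearly every ribosomal protein, the acidic stalk proteins being the main exception, and cells make these proteins in balanced amounts. In flies most ribosomal proteins come from 1 gene, and loss of a single copy of many of these genes gives the Minute phenotype of slow development and short bristles. A small set of proteins is encoded by pairs of paralogues, of which one is often low outside the germ line. The -like genes are related in sequence to a ribosomal protein, and some of them have other roles. RpL24-like and RpLP0-like are the fly relatives of ribosome assembly factors.

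Libraries held between 12646077 and 19454630 counted reads. In the control libraries 12.5%, 12.2% and 11.9% of all reads fell in the 87 genes, and in the mutant libraries 11.8%, 12.2% and 12.1% did. Levels are CPM, a gene's reads relative to the size of its library after scaling by trimmed mean of M-values (TMM). Each gene was tested with edgeR's quasi-likelihood test, adjusted over all 10526 genes by Benjamini-Hochberg. Total sgg RNA was at 302 ± 15.5 CPM (control) and 306 ± 2.77 CPM (mutant; SD, n = 3 per line), a log2 difference of 0.02 (edgeR adjusted p 0.871). Reads of sgg do not separate the tagged form or the mutated sites, so this value is no check of the genotype.

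RNA for the cytosolic ribosome was abundant in both lines and differed little between them. Of the 87 genes 1 passed an adjusted p under 0.05, RpS14b, which rose in the mutant line. The share of all tested genes past that threshold was 22.3% in either direction, and 13.7% were higher in the mutant line. The 2350 genes called in either direction became 1295 without mutant library 3, 1395 without mutant library 1 and 1499 without control library 2. They became 1753, 1898 and 2146 without mutant library 2, control library 3 and control library 1. These fits hold fewer libraries, so fewer calls do not by themselves show that the share rests on a single library. In each fit without 1 library, 1 or 2 members were called. At an unadjusted p under 0.05 there were 4 members, RpS14b, RpS15Ab, RpS21 and RpS5b, against 36.1% of all tested genes. The genes other than members with a mean of at least 500 CPM numbered 214, and 37.4% of them passed the adjusted threshold; this limit of 500 CPM was chosen after values had been seen.

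The median log2 fold change of the members, mutant over control, was 0.01, beside -0.01 for all tested genes, and it turned negative under upper-quartile scaling (-0.0063) and under library size alone (-0.026), where the median of all tested genes also shifted, to -0.03 and -0.05. The median size of a member's difference, without its sign, was 0.025 on the log2 scale, beside 0.19 for all tested genes and 0.21 for the other abundant genes. Estimates lay above 0 for 58 members and below 0 for 29 under TMM.

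A test that misses the threshold does not show equal levels, so the interval of each difference was also read. For 80 of the 87 members the 95% interval of the fold change lay wholly inside a 1.2-fold difference either way, a limit chosen after values had been seen. The same was true of 16.6% of all tested genes and of 25.7% of the other abundant genes. The 7 members outside this range were RpS14b, RpS21, RpS15Ab and RpS5b, and the rare RpL22-like, RpS10a and RpS19b, whose intervals were wide.

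**Figure D1:**
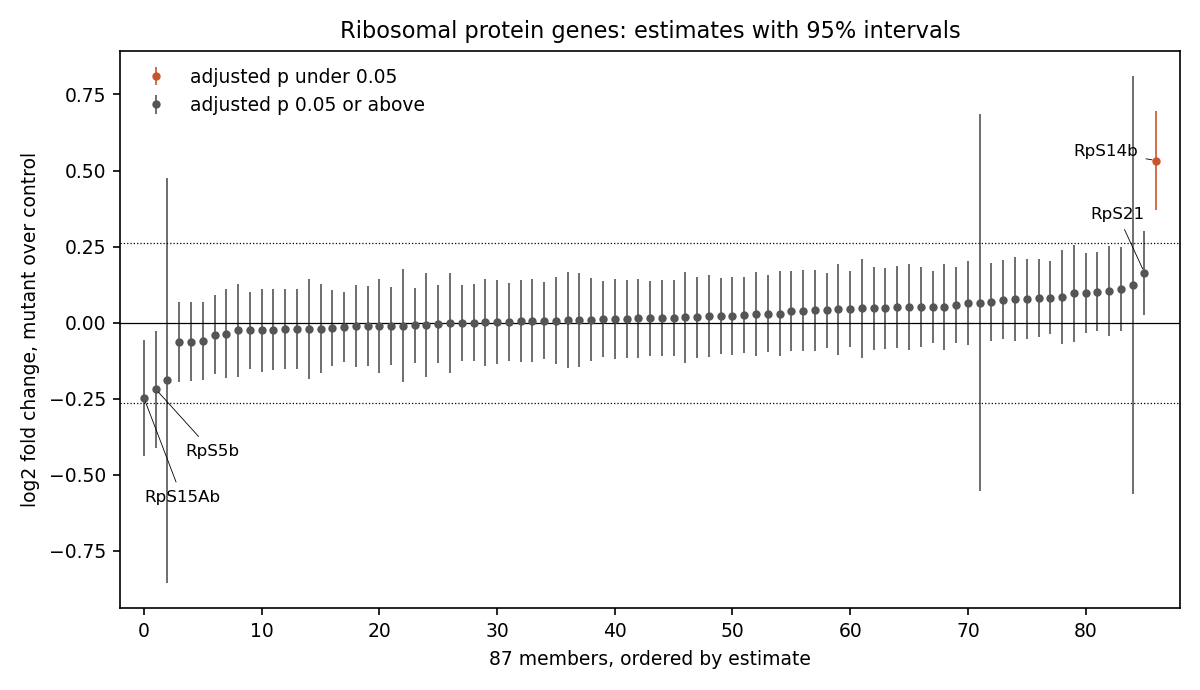
Log2 fold change of each of the 87 members, mutant over control, ordered by estimate, with its 95% interval from edgeR. Dotted lines mark a 1.2-fold difference either way. RpS14b alone passed the adjusted threshold, and the 3 widest intervals belong to RpS10a, RpL22-like and RpS19b.

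Apart from the lower-expressed gene of each of 9 pairs, 78 genes remained, called core members here. None of the 78 passed the threshold, with a lowest adjusted p of 0.0867 in edgeR's test, for RpS21. At an unadjusted p under 0.05 RpS21 was the sole one. The estimates ran from -0.06 for RpS3A to 0.16 for RpS21 on the log2 scale. The bounds of their intervals reached from -0.20 to 0.30. The 47 core genes of the large subunit had a median of 0.02 and the 31 of the small subunit a median of 0.01.

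The stalk of the large subunit, which recruits the translation factors, is built from RpLP0, RpLP1 and RpLP2. RpLP0 was at 2042, 1970 and 1920 CPM in control libraries 1, 2 and 3 and at 1972, 2043 and 2087 CPM in the mutant libraries. The lines overlapped, with a log2 difference of 0.04 (95% interval -0.08 to 0.16). RpLP1 and RpLP2 differed by -0.01 and 0.08, each with an interval that included 0.

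RpL5 and RpL11 form, with the 5S ribosomal RNA, a particle that is built before it joins the large subunit. RpL5 was the member with the most reads, at 3338, 3112 and 2956 CPM in the control libraries and 3119, 3328 and 3155 CPM in the mutant libraries. Its log2 difference of 0.03 was smaller than its standard error of 0.06. RpL11 differed by -0.04 (95% interval -0.17 to 0.09).

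RpS27A and RpL40 are made as fusions with ubiquitin, and RpS30 with a ubiquitin-like protein. RpS27A was at 1640 ± 71.5 CPM (control) and 1707 ± 10.9 CPM (mutant; SD, n = 3 per line). The intervals of all 3 fusions included 0, with log2 differences of 0.06 for RpS27A, -0.02 for RpL40 and 0.05 for RpS30. Exons of RpS27A overlap those of Ip259 on the same strand, so their reads cannot be told apart in the overlap.

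RpS6 is the substrate of S6 kinase, and RpS3 contributes to the mRNA entry channel. RpS12 is required in flies for cells with too few ribosomal proteins to be outcompeted. RpS6 was at 2154 ± 83.4 and 2175 ± 72.5 CPM (SD, n = 3 each), RpS3 at 1761 ± 67.3 and 1689 ± 54.2 CPM, and RpS12 at 1228 ± 82.8 and 1236 ± 58.6 CPM in the control and mutant lines. The libraries of the lines overlapped in each of them, and the edgeR adjusted p was 0.893, 0.48 and 0.947. Exons of RpS6 overlap those of snoRNA:Or-aca2 and CR33222 on the same strand, so reads in the overlap cannot be told apart.

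RpL32 (rp49) is widely used as a reference transcript in fly expression assays. It was at 1194, 1178 and 1123 CPM in the control libraries and at 1188, 1267 and 1239 CPM in the mutant libraries. The lines overlapped through control library 1 and mutant library 1, and the log2 difference was 0.08 (95% interval -0.05 to 0.21).

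RpS21, a small-subunit protein whose loss in flies causes overgrowth of the blood-forming organs, had the largest estimate among the core members. It was at 737, 703 and 664 CPM in the control libraries and at 773, 806 and 778 CPM in the mutant libraries. The lines did not overlap, and the log2 difference was 0.16 (standard error 0.06), which did not pass the threshold. Lines that did not overlap were found for 9 members, 7 higher in the mutant line and 2 lower, against 41.9% of all tested genes in either direction. The 7 were RpL23, RpL29, RpL39, RpL41, RpS9, RpS14b and RpS21, and the 2 were RpS15Ab and RpS5b.

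Levels between genes were compared per kilobase of the longest annotated transcript. This length can exceed the transcript that embryos use, as may hold for RpL5, and then understates the level. Core members lay between 624 CPM per kb for RpL22 and 5087 CPM per kb for RpL41, an 8.15-fold range. The middle of the distribution was narrower, with a median of 1733 and a ratio of 2.36 between the 90th and 10th percentiles. Exons of RpL22 overlap those of lncRNA:CR42491 on the same strand, so reads in the overlap cannot be told apart. After RpL41, the smallest ribosomal protein, the highest levels were those of RpL27A (3014), RpS27A (2828), RpL23 (2615) and RpS18 (2553 CPM per kb).

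The 5 lowest levels per length all belonged to a paralogue or a -like gene, which were RpS19b (2.03 CPM per kb), RpS10a (2.31), RpL22-like (2.54), RpS15Ab (55.9) and RpLP0-like (58.7). The medians were close in the core genes of both subunits, at 1643 CPM per kb for the large and 1776 for the small.

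**Figure D2:**
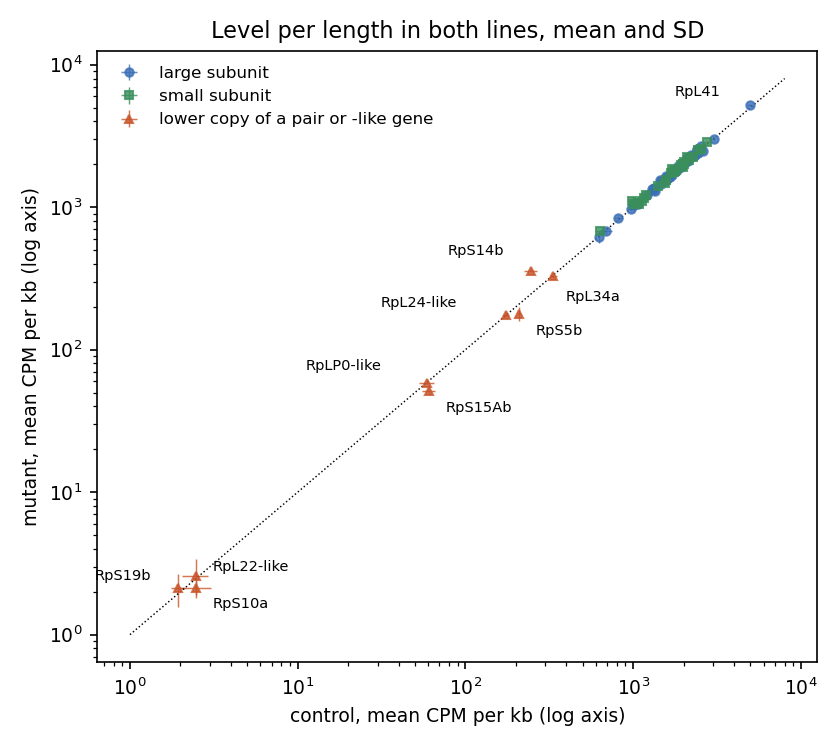
Mean CPM per kb of the longest transcript in the control line (x, log axis) and the mutant line (y, log axis) for 87 members, with SD over 3 libraries per line. Points of the core genes lie along the dotted line of equal level between 624 and 5087 CPM per kb, and RpS14b lies above it.

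The one member that passed the threshold, RpS14b (FBgn0004404), is a tandem copy of RpS14a (FBgn0004403). Both encode uS11, a protein of the platform of the small subunit. In the Ensembl annotation of BDGP6, used here for positions, RpS14a lies on chromosome X at 7933742 to 7934677 and RpS14b at 7934898 to 7935792, both on the forward strand and 220 bases apart. Each has coding exon segments of 237 and 216 bases. Neither has exons that overlap another annotated gene. The pair lies 5.25 Mb from the end of sgg on the same chromosome.

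The read count of RpS14b was 1789, 3131 and 2532 in the control libraries, numbered 1 to 3, and 3169, 3262 and 3188 in the mutant libraries. After scaling these were 141, 160 and 137 CPM against 210, 215 and 208 CPM. All 3 mutant values lay above all 3 control values. The mean rose 1.45-fold, from 146 ± 12.3 to 211 ± 3.47 CPM (SD, n = 3 per line). On the log2 scale this was 0.53 (standard error 0.07, 95% interval 0.37 to 0.70; edgeR adjusted p 0.00231). The authors' deposited table gives -0.53 for control over mutant (adjusted p 0.00208), and RpS14b is also the 1 member under 0.05 there.

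RpS14a, the more abundant copy, was at 973, 966 and 893 CPM in the control libraries and 875, 970 and 915 CPM in the mutant libraries. The lines overlapped, with a log2 difference of -0.04 (95% interval -0.18 to 0.11). RpS14b made up 17.6%, 19.6% and 18.5% of the pair's reads per kb in the control libraries and 26.2%, 24.6% and 25.1% in the mutant libraries. The difference of 6.75 percentage points had an exact two-sided permutation p of 0.1, the smallest that 3 libraries against 3 allow, and 0.3 after adjustment over the 9 pairs. This share rests on the same reads as the call of RpS14b and is not independent of it.

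The copies are near-identical in their coding parts, and how reads that match both were assigned is not given in the sources used here. The counts of both copies were therefore also added and fitted as 1 gene. RpS14a plus RpS14b was at 1090 ± 52.4 CPM (control) and 1131 ± 50.2 CPM (mutant; SD, n = 3 per line). The log2 difference of the sum was 0.05 (95% interval -0.09 to 0.20; edgeR adjusted p 0.58). The sum is mostly RpS14a, so the rise of RpS14b alone, with RpS14a at its control mean, would move it by 0.08 on the log2 scale, against a standard error of 0.06. The sum is therefore no test of RpS14b. The part that read assignment plays in the rise of RpS14b was not tested.

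**Figure D3:**
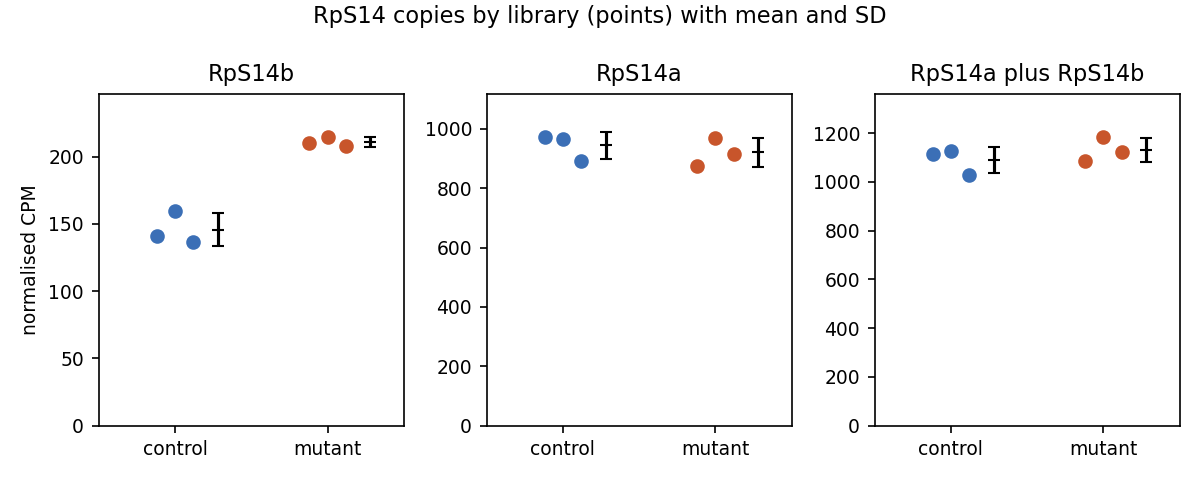
Normalised CPM of RpS14b, RpS14a and their sum in each library (points, 3 per line), with mean and SD. For RpS14b the mutant libraries (208 to 215 CPM) lie above the control libraries (137 to 160 CPM), while RpS14a and the sum overlap between lines.

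The other pairs were described in the same way. RpS5a and RpS5b encode a protein at the mRNA exit of the small subunit, and RpS5b is known for its role in the female germ line. RpS5b was at 192, 203 and 198 CPM in the control libraries and at 190, 151 and 169 CPM in the mutant libraries. The lines did not overlap, by a narrow margin at mutant library 1. The log2 difference was -0.22 (standard error 0.08; edgeR adjusted p 0.0988), and in the fits without 1 library it ran from -0.14 (adjusted p 0.253, without mutant library 2) to -0.32 (adjusted p 0.0371, without mutant library 1). It passed in that last fit alone of the 15 alternatives. RpS5a differed by 0.02. The share of RpS5b in the pair's reads per kb was 14.8% ± 0.75 in the control line and 12.8% ± 1.44 in the mutant line (SD, n = 3 each), and the lines overlapped in it. Of 12 germ cell markers measured, 1 fell and 0 rose, where 22.3% of all tested genes were called. Their estimates ran from -0.66 to 0.29 on the log2 scale, with a median of -0.11. For gcl the mutant libraries all lay above the control libraries (0.24; edgeR adjusted p 0.103). The 1 that fell was the germ cell helicase gene vas, with a log2 fold change of -0.48 (edgeR adjusted p 0.0223). The call of vas was lost without control library 2 or 3 and without mutant library 1 or 2. The markers' summed level was 535 to 639 CPM in the control libraries and 571 to 586 CPM in the mutant libraries. These sums overlapped between lines. They mostly reflect tud, at 254 CPM (control) and 230 CPM (mutant), and gcl, at 177 and 209 CPM. The sums therefore say little about the markers at low levels, vas among them. The number of germ cells and the RNA per cell cannot be told apart in whole embryos, and the part of germ cell RNA in the RpS5b values was not tested.

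RpS15Aa and RpS15Ab encode uS8 of the small subunit. RpS15Ab was at 47.7, 44.4 and 39.7 CPM in the control libraries and at 36.4, 36.3 and 38.1 CPM in the mutant libraries, without overlap. Its log2 difference was -0.25 (standard error 0.08; edgeR adjusted p 0.066). It passed without control library 3 (-0.32, adjusted p 0.0315) and under 3 other scalings, where its adjusted p ran from 0.0341 under library size alone to 0.0485. It did not pass in the other 11 alternatives, among them the fit without control library 1 (-0.19, adjusted p 0.142) and that with the replicate number as a block (-0.25, adjusted p 0.111). RpS15Aa differed by 0.02. RpS15Ab made up 5.50% ± 0.29 of the pair per kb in the control line and 4.63% ± 0.13 in the mutant line (SD, n = 3 each).

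RpL34a and RpL34b differed by -0.02 and 0.05 on the log2 scale and neither passed the threshold. Their shares nevertheless did not overlap, since RpL34a made up 19.3%, 18.0% and 18.2% of the pair per kb in the control libraries and 17.8%, 17.7% and 17.8% in the mutant libraries. The margin was narrow. With RpS14b, RpS15Ab and RpL34a, the share of the lower gene did not overlap between lines in 3 of 9 pairs. In CPM, a different measure, 41.9% of all tested genes did not overlap. Each of the 3 had an exact permutation p of 0.1 and 0.3 after adjustment. This p is the smallest that 3 libraries against 3 allow, so it restates the lack of overlap and could not pass 0.05.

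RpL24-like, the relative of an assembly factor that holds the place of RpL24 in the immature large subunit, was at 135 ± 6.09 and 135 ± 4.59 CPM in the control and mutant lines (SD, n = 3 each). RpLP0-like, the relative of the factor that precedes RpLP0, was at 55.9 ± 5.40 and 55.4 ± 0.64 CPM. Both differences were under 0.02 on the log2 scale, with intervals of -0.14 to 0.14 and -0.19 to 0.18. Exons of these genes lie opposite those of Dtd and Jra.

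RpS10a, RpS19b and RpL22-like, paralogues known from the germ line, had between 15 and 71 reads in a library. Their shares of the pair per kb were between 0.104% and 0.531%. Their intervals were -0.85 to 0.48 for RpS10a, -0.56 to 0.81 for RpS19b and -0.55 to 0.68 for RpL22-like on the log2 scale. At this depth a difference as large as that of RpS14b, 0.53, lay inside the intervals of RpS19b and RpL22-like in either direction, and inside that of RpS10a as a decrease only. A further 5 genes with RpL or RpS names in the gene name table had too few reads to be in the comparison. RpL7-like and RpL10Aa had 0 reads in all libraries, which allows up to 3 reads or 0.154 to 0.237 CPM in a library. RpS28a had at most 2 reads, RpS28-like at most 4 and RpL37-2 at most 15.

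**Figure D4:**
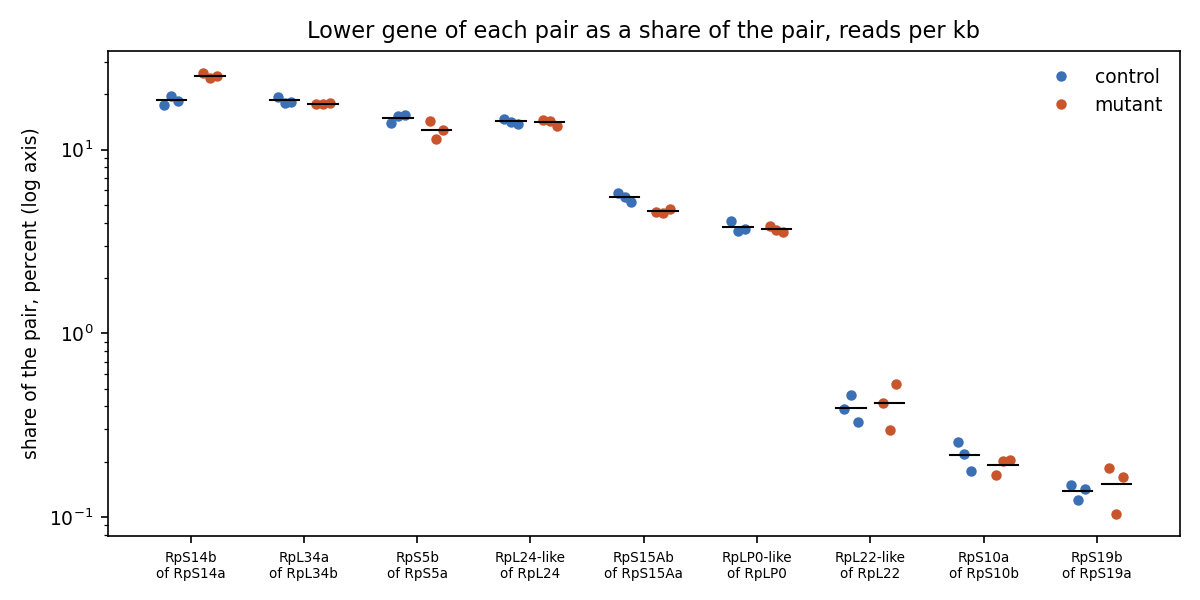
Share of the lower-expressed gene in the reads per kb of each of 9 pairs (percent, log axis), by library (points) with the mean of 3 libraries per line (bars). RpS14b is higher in the mutant line, RpS15Ab and RpL34a are lower, and the other 6 overlap.

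Members shared deviations from library to library. In control library 3, 86 of the 87 members lay below their own mean over the 6 libraries, RpS5b being the exception, with a median deviation of -0.07 on the log2 scale. In mutant library 2, 73 members lay above their mean, with a median deviation of 0.05, and in control library 1, 70 did, with 0.04. Mutant library 1 had 22 members above their mean. The median deviation of all tested genes was between -0.0086 and 0.0123 in the 6 libraries. The summed level was 124373, 121080 and 115263 CPM in the control libraries and 118616, 125301 and 121855 CPM in the mutant libraries. The line means of 120239 ± 4613 and 121924 ± 3343 CPM (SD, n = 3 each) differed by 1685 CPM, less than the spread within a line. The sign of this difference turned under library size alone (-1733 CPM) and under upper-quartile scaling (-57.8 CPM). Without control library 3 the median log2 fold change of the members was -0.02.

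**Figure D5:**
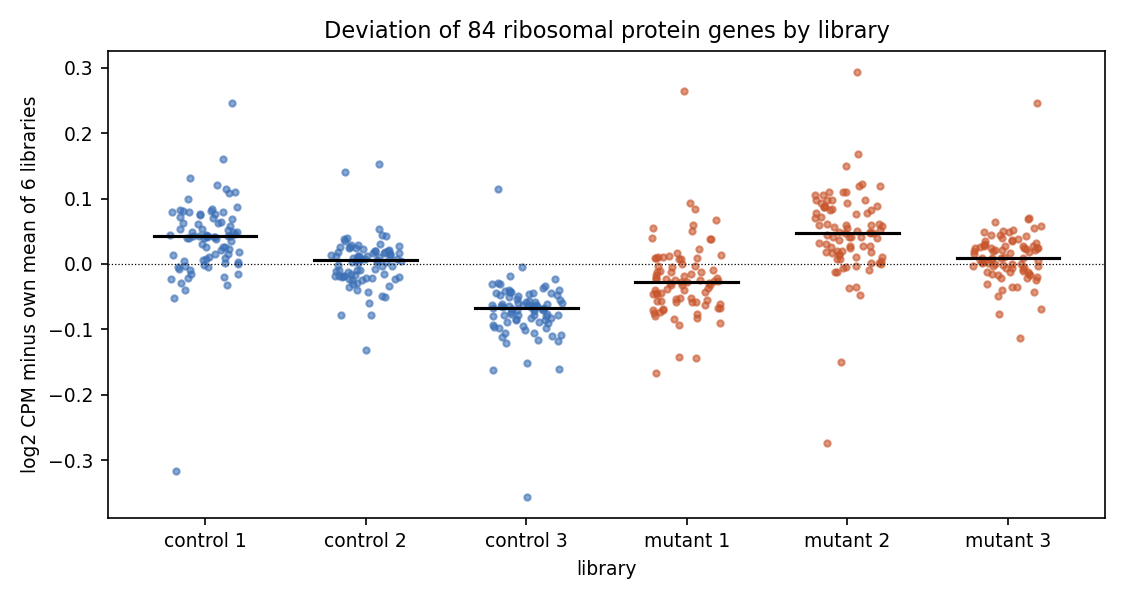
Log2 CPM of 84 members minus each gene's own mean over 6 libraries, by library (points), with the median (bar); the 3 genes under 5 CPM are left out. Control library 3 lies below 0 for nearly all genes, while control library 1 and mutant library 2 lie mostly above it.

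Related genes were read beside the members. The ribosomal proteins that the naming rule leaves out, sta (uS2) and Rack1, differed by -0.04 and 0.02 on the log2 scale, both with intervals that include 0. Of 41 genes of a ribosome biogenesis list that were measured, 0 rose and 1 fell, with a list median of -0.02. The share of all tested genes called was 22.3%. The list was set by gene name, and not every gene on it need be a biogenesis factor. The 1 that fell, Rrp1, is a DNA repair endonuclease in flies and not a biogenesis factor. It went from 24.1 ± 1.68 to 17.2 ± 2.09 CPM (SD, n = 3 each), and its call was lost without mutant library 1 and without mutant library 2. The nucleolar methyltransferase gene Fib differed by -0.01.

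Of 7 elongation factor genes measured 0 rose and 1 fell, against 22.3% of all tested genes called in either direction. The 1 that fell, eEF1alpha2, went from 21.8 ± 1.48 to 15.0 ± 1.58 CPM (SD, n = 3 per line). Its log2 difference was -0.54 (edgeR adjusted p 0.0105), and it passed in all 15 alternatives. The major gene eEF1alpha1 was at 8141 ± 476 and 7778 ± 400 CPM, a difference within the spread. The translocase gene eEF2 differed by 0.04.

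Of 17 measured genes on a list of regulators of ribosomal protein genes or of the response to their loss, 2 rose and 4 fell. The list median was -0.01, and 22.3% of all tested genes were called. This list too was set by gene name, and not every gene on it need be such a regulator. S6k, the kinase of RpS6, was at 261, 269 and 260 CPM in the control libraries and 321, 306 and 311 CPM in the mutant libraries, without overlap. It rose by 0.25 on the log2 scale (edgeR adjusted p 0.0162). The gene larp, whose protein binds the mRNAs of ribosomal proteins in other animals, rose by 0.25 (edgeR adjusted p 0.0289). Thor, the translation inhibitor 4E-BP, was at 118, 119 and 118 CPM in the control libraries and 97.5, 102 and 103 CPM in the mutant libraries, and had a log2 fold change of -0.23 (edgeR adjusted p 0.0248). Mnt, a repressor that opposes Myc, had -0.44, the zinc-finger gene crol -0.21 and the RNA-binding protein gene Dp1 -0.26. The calls of S6k and Thor were lost without control library 2, mutant library 1 or mutant library 3, that of larp also without control library 1, and that of crol in all 6 fits without 1 library. Thor and crol were also lost with the replicate number as a block, where 4 regulators were called, and larp under library size alone. Without control library 2, mutant library 1 or mutant library 3, 2 of the 17 regulators were called. Myc (0.17) and the cell competition factor Xrp1 (0.07) did not pass the threshold.

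Markers of tissues and of age were measured in the same libraries. Of all tested genes 22.3% were called in either direction and 13.7% as higher in the mutant line. Of 5 muscle markers 4 rose, with a summed level of 19102 to 20593 CPM in the control libraries and 23497 to 24054 CPM in the mutant libraries. Mef2 did not pass the threshold (-0.03; edgeR adjusted p 0.836). The muscle sums mostly reflect Act57B, with means of 8929 CPM (control) and 10562 CPM (mutant), and Mhc, with 5496 and 6494 CPM. The call of Mhc held in 7 of the 15 alternatives, those of Act57B and Tm1 in 14 and that of Mlc2 in all 15. Of 5 hemocyte markers 1 rose, Col4a1, the most abundant of them, from a mean of 2416 to 3435 CPM. Hml (1.01) and srp (0.21) had log2 fold changes above 0, and Pxn (-0.18) and Ppn (-0.04) below 0, none past the threshold. The hemocyte sums were 3642 to 4590 CPM (control) and 4849 to 5364 CPM (mutant), a difference that lies mainly in Col4a1. Of 5 neuron markers 2 rose and 1 fell. Of 3 trachea markers 1 fell and of 3 gut markers 0 passed the threshold. Of 13 earlier-embryo markers 1 rose and 5 fell, and of 12 later-embryo markers 4 rose and 4 fell. The later-embryo sums were 15404 to 18341 CPM in the control libraries and 13726 to 14444 CPM in the mutant libraries. They mostly reflect Osi6 and Osi7, with means of 6940 and 4756 CPM in the control line and 3808 and 2704 CPM in the mutant line. TwdlM, 1 of the 4 that rose, went from 907 to 2609 CPM. The median log2 fold change of this list was 0.12, so the sums do not describe the list as a whole. Several of these counts changed when 1 library was left out, in fits that also hold fewer libraries. In the fits without 1 library, 2 to 4 muscle markers were called (2 without control library 2 or mutant library 3), 0 to 3 neuron markers (0 without either of the same libraries), 0 to 3 germ cell markers and 3 to 5 earlier-embryo markers. Hemocyte calls reached 3 without control library 1, and the trachea call held without control library 3 or mutant library 2. Markers of neurons, muscle, hemocytes, gut and trachea were all present, as a whole embryo would give. Their part in the values of the members was not tested.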

How the data were processed

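Per the labels' protocols, 100 ng of total RNA per library was poly(A)-selected, made into strand-specific libraries with 12 PCR cycles and sequenced from one end. The authors deposited whole-number counts per gene and, for 10526 genes, log2 CPM per library with their own log2 fold change, p-value and adjusted p-value. The submitters' processing notes name TopHat2 2.1.1, Bowtie2 2.3.4.0, edgeR 3.14.0 and limma 3.28.21. The counter, genome build and strand setting are not given in the sources used here. The authors' t and B statistics, deposited as scores, were not used. Here genes passing filterByExpr (minimum count 10, minimum total 15) were scaled by TMM and tested with edgeR 4.0.16 (R 4.3.3), without the replicate number. Standard errors are the log2 fold change divided by the square root of F, and 95% intervals use its degrees of freedom. Reads lack molecular identifiers, so the limit of 3 reads covers counting error only. Collections are independent per the labels. DESeq2 1.42.0 and limma-voom 3.58.1 were alternatives. The code was tested on simulated data. Genes were matched to the Ensembl annotation by ID for 86 members and by symbol for RpS12. Members, gene lists and tests were chosen with earlier results of these data known. Named were the members past the threshold, the pairs and -like genes, the 5 highest and 5 lowest per kb and the called genes of each related list. Other core genes were named, and the pairs listed, after values had been seen.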

Additional observations from a re-analysis of the deposited data

How the results depend on the processing

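RpS14b kept its direction and its call in all 15 alternatives, with log2 fold changes of 0.48 to 0.59 and adjusted p up to 0.0153, and its sum with RpS14a, added after seeing the data, is too much RpS14a to test it (0.05, adjusted p 0.58). Members called numbered 2, of which 1 was lower, under upper-quartile scaling, library size alone and TMM computed without the members (RpS15Ab added). Across the 6 fits without 1 library the count ran from 1 to 2 and the count of lower members from 0 to 1, with RpS15Ab added without control library 3 and RpS5b without mutant library 1. The cause was not tested. Of the ribosome biogenesis list 2 genes were called under upper-quartile scaling and under TMM without the members, 4 under library size alone, and 0 to 2 without 1 library. Of the regulators 2 to 5 were called without 1 library. The member median ran from -0.026 to 0.0435, and the number of members inside a 1.2-fold difference from 75 to 81. Shares of reads not divided by length gave 5.30 percentage points for RpS14b. For 23 named members, 345 estimates gave 5 added calls, 0 lost calls and 34 changes of sign where neither fit made a call. With the replicate block, RpS14b was at 0.54 (adjusted p 0.00552) and remained the 1 member called, 1994 genes were called in all, and the regulators called fell to 4 (Thor and crol lost). Genes called in all ran from 1295 to 2540 over the alternatives, against 2350. Correlations of equally numbered libraries were -0.0184, -0.0188 and 0.0102, so the block was kept out of the reported fit. Genes with few reads limit what can be seen, as for RpS10a, RpS19b and RpL22-like.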

Other observations

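In 5 of the 9 pairs the gene with more reads lies on chromosome X and the gene with fewer on an autosome, namely RpS5a, RpS10b, RpS15Aa, RpS19a and RpL22. The RpS14 copies both lie on X. The 14 members on X had a median log2 fold change of 0.01, and the medians of the 2L, 2R, 3L and 3R members were 0.02, 0.02, 0.03 and 0.01. Within their introns and exons 28 members hold 74 annotated genes for small nucleolar RNAs, which guide the modification of ribosomal RNA. These 28 had a median of 0.01, and the other 59 had 0.02. Exons of 30 members overlap another annotated gene, among them RpL12 and RpL39, which lie on opposite strands and overlap each other.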
